A study of Arabidopsis thaliana with 18 samples.

Results

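Roots of the Arabidopsis line oxMYB72 were compared with roots of its parent mutant, myb72-2, while both carried the beneficial bacterium WCS417. The comparison used 6 of the 18 arrays of the study, the 3 labelled oxMYB72_WCS417 and the 3 labelled myb72_WCS417, and 22746 probe sets after control probe sets were left out. Both groups carry the myb72-2 mutation in the Col-0 background, and oxMYB72 adds 35S:FLAG-MYB72, a tagged copy behind a constitutive viral promoter that is active in most cells and not only where MYB72 is normally expressed. Bacteria of Pseudomonas fluorescens WCS417, since renamed Pseudomonas simiae, were applied to roots of 17-day-old seedlings, and roots were taken at 19 days. The same genotypes without bacteria and the wild type Col-0, each with 3 arrays per treatment, give the other levels shown. The labels do not say whether oxMYB72 is 1 transgenic line or how roots were pooled. The study calls the replicates biological. Nothing says that they came from separate batches of plants, so each p-value reflects only how far these samples vary, which may be technical.

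MYB72 is a root transcription factor that is switched on by iron shortage and by root-colonizing bacteria such as WCS417. It is needed for induced systemic resistance, a state in which leaves defend themselves better after the roots have met such bacteria. Among its known targets is BGLU42, a beta-glucosidase that takes part in releasing coumarins, the fluorescent phenolics that roots secrete to mobilize iron and that also act on the microbes around them.

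The array medians of all 18 arrays lay between 6.291 and 6.414 on the log2 scale of RMA, the authors' normalization, and the lowest correlation of an array with its own group was 0.9913. The annotation used names no probe set MYB72. So neither the mutation nor the transgene could be checked against the labels by a probe set of that name. As a measure of RNA integrity, the 3′ minus 5′ control signal of actin differed by 0.002 between the means of the 2 groups. It ran from 1.203 to 1.476 over the 6 arrays. Those of GAPDH and ubiquitin differed by 0.037 each. Root hair and epidermis markers, of which 4 were measured, had array means of 8.142 to 8.283 in oxMYB72 and 8.285 to 8.792 in myb72-2. All 4 were lower in oxMYB72, with log2 differences of -0.316 to -0.273. Of them 2 had an unadjusted limma p under 0.05, beside 3807 of all 22746 probe sets. The 3 green tissue markers measured had array means of 6.61 to 6.783 and 6.479 to 6.773, so they were not near the bottom of the scale, and none of the 7 markers was called. A single untreated array of myb72-2, replicate 2, stood apart from its group in genes that respond to bacteria, and differences between conditions in such genes are also given without it.

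In colonized roots 651 probe sets (2.86% of those tested) were higher in oxMYB72 than in myb72-2 and 605 (2.66%) were lower, at a Benjamini-Hochberg adjusted p under 0.05 in limma, 5.52% in all. The larger changes were mostly falls. At least 2-fold changes numbered 87 upward (0.382%) and 163 downward (0.717%), and at least 4-fold changes 6 upward (0.0264%) and 47 downward (0.207%). Of the called probe sets, 329 of those higher and 318 of those lower belong to exactly 1 named gene, and 609 have no single gene in the annotation used. With the spread estimated from the 6 compared arrays alone, in place of all 18, 266 were higher and 322 lower. Over all probe sets the 3 arrays of one group lay entirely beyond the 3 of the other in 16.2%, 9.03% with oxMYB72 higher and 7.13% with it lower. Against colonized Col-0, 4.26% were called in oxMYB72, 460 (2.02%) higher and 509 (2.24%) lower. The mutant differed from colonized Col-0 in 29 (0.127%), 4 (0.0176%) higher and 25 (0.11%) lower. The mutant count was 12 without Col-0_WCS417 replicate 1, 11 without its replicate 3, 47 without myb72_WCS417 replicate 1 and 121 without its replicate 3.

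AT3G24510, AT4G37290 and AT1G26380 showed the largest falls of single named genes, and larger ones in probe sets without a gene are given below. AT3G24510, which encodes a defensin-like peptide, lay at 3.25, 3.99 and 3.22 in the oxMYB72 arrays and at 8.40, 8.50 and 8.58 in the myb72-2 arrays, on the log2 RMA scale used for all levels here. The groups were far apart, and the oxMYB72 values were close to 3.089, the level under which 5% of all values in the 6 arrays fall. The log2 difference was -5.01 ± 0.18 (SE from limma, as for every log2 difference below; adjusted p = 6.6e-14), a level 32.1-fold lower. In colonized Col-0 the gene lay at 8.45, 8.27 and 8.53, and in untreated roots all 9 arrays were at or below 3.81.

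**Figure D1:**
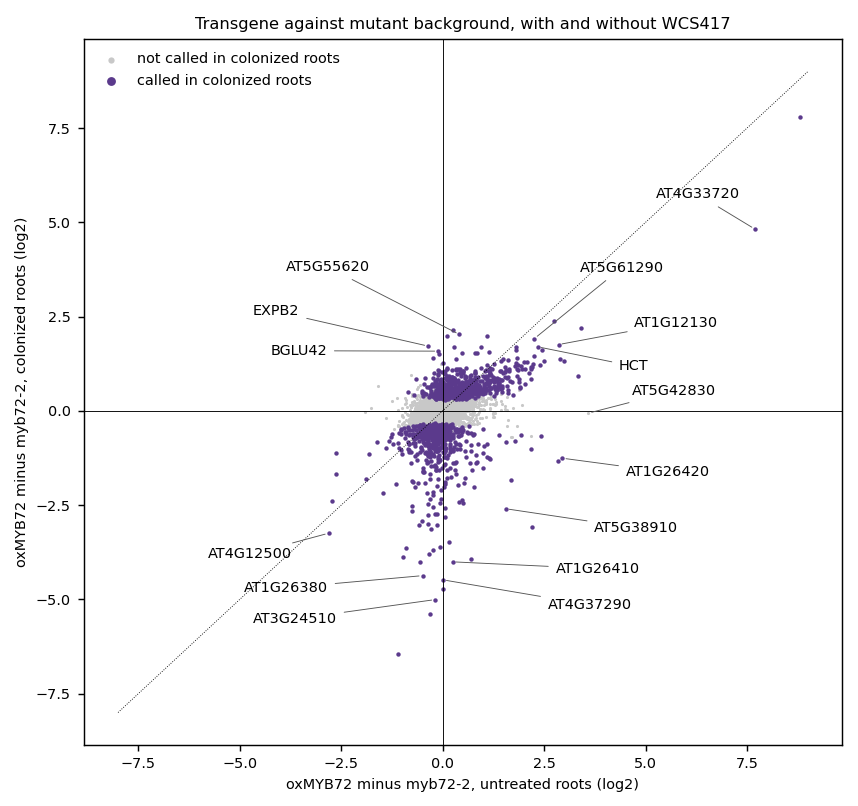
Log2 difference between oxMYB72 and myb72-2 for every probe set, in untreated roots (horizontal) and in colonized roots (vertical), with probe sets called in colonized roots in purple and equal differences on the dotted line. AT3G24510 and AT4G37290 lie far below 0 in colonized roots and near 0 in untreated roots, while AT4G33720 is high in both.

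AT4G37290 and AT4G28460 encode precursors of PAMP-induced secreted peptides, which plant cells release when they sense microbial molecules. AT4G37290 lay at 4.23, 4.53 and 4.50 in oxMYB72 and at 8.37, 9.41 and 8.92 in myb72-2. It fell by 4.48 on the log2 scale (SE 0.19, adjusted p = 1.3e-12), and the untreated roots of the 2 genotypes differed by 0.01 ± 0.19. So the level with bacteria in oxMYB72 was within the range of untreated roots, between 4.30 and 4.87 over all 9 arrays, apart from 1 oxMYB72 array that was lower. AT4G28460 lay at 5.90, 5.16 and 4.59 against 7.57, 8.99 and 8.46, a log2 difference of -3.12 ± 0.31 (adjusted p = 5.15e-07). AT2G23270, another gene for a small peptide, lay at 5.41, 4.82 and 4.68 against 8.18, 9.16 and 8.97, a log2 difference of -3.80 ± 0.22. Groups that did not overlap between oxMYB72 and myb72-2 were a condition for naming the largest falls, so that separation is no result of its own. In each gene the 3 colonized Col-0 arrays, which did not enter that choice, were above every colonized oxMYB72 array.

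Berberine bridge enzyme-like proteins are secreted flavin oxidoreductases, and AT1G26380 is known from leaves attacked by bacteria, where it takes part in making an indole defence compound. Of 13 measured members 6 were lower and 0 higher, beside 2.66% lower and 2.86% higher over all probe sets, with a median log2 difference of -0.27 against 0.012 over all. AT1G26410 lay at 4.37, 4.80 and 3.73 in oxMYB72 and at 8.08, 8.50 and 8.34 in myb72-2, a log2 difference of -4.00 ± 0.26 (adjusted p = 1e-09). AT1G26380 lay at 7.22, 6.91 and 5.54 against 10.46, 11.23 and 11.08, and differed by -4.37 ± 0.55 (adjusted p = 1.27e-05). AT1G26390 differed by -3.47 ± 0.37 and AT1G26420 by -1.26 ± 0.20. These 4 genes stand beside each other on chromosome 1, with AT1G26400 between them, which lay at 3.08 to 3.40 in all 6 arrays and differed by -0.14 ± 0.12. AT4G20830 (-0.93) and AT5G44380 (-0.55) were the other members called lower.

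Of these members, AT1G26420 was called in opposite directions in the 2 conditions. In untreated roots it lay between 6.67 and 7.01 in oxMYB72 and at 3.76, 4.18 and 3.89 in myb72-2, so it was higher by 2.95 ± 0.20 (adjusted p = 1.09e-09). With bacteria it lay at 6.16, 6.15 and 5.69 against 6.63, 7.54 and 7.61. The test of the difference between the 2 conditions gave -4.21 ± 0.29 (adjusted p = 6.39e-09), and -4.33 without untreated myb72-2 replicate 2. AT5G38910, a germin-like protein of the cell wall, showed the same reversal. It was higher by 1.55 ± 0.31 without bacteria and differed by -2.60 with them, at 7.74, 7.72 and 6.36 in oxMYB72 against 9.46, 10.05 and 10.10 in myb72-2.

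**Figure D2:**
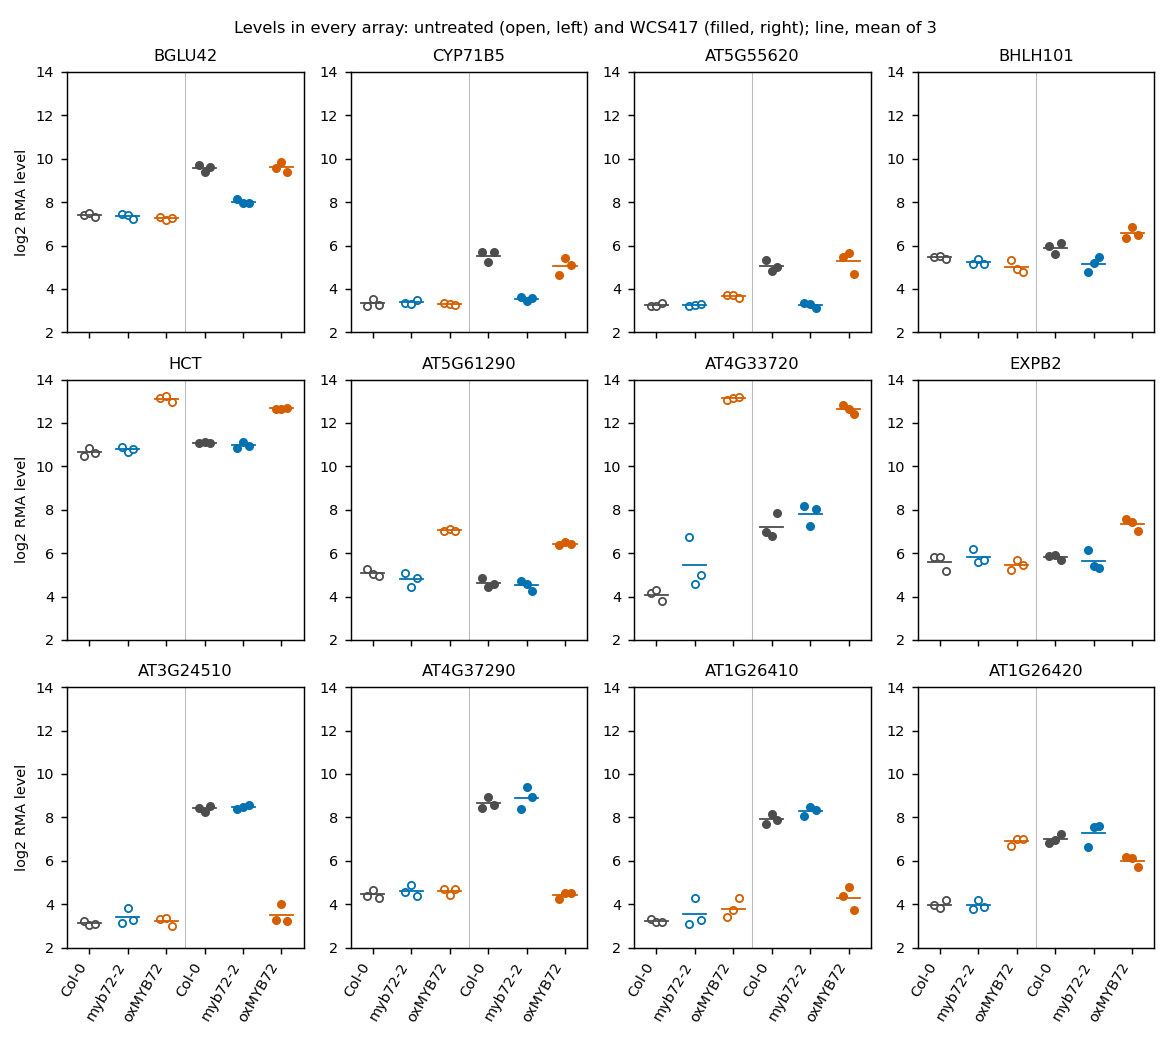
Log2 RMA level of 12 genes in every array, with untreated roots as open and colonized roots as filled points and a line at the mean of 3 arrays. BGLU42, CYP71B5 and AT5G55620 reach the Col-0 range in colonized oxMYB72, while AT3G24510 and AT4G37290 stay near their untreated level only there.

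Further large falls were in AT1G26240 and AT5G06730. AT1G26240, an extensin-like protein that can be cross-linked into the wall, lay at 5.59, 6.09 and 5.44 in oxMYB72 and at 8.46, 8.55 and 9.21 in myb72-2 (log2 difference -3.03 ± 0.23, adjusted p = 1.01e-08). Its relative AT1G26250 was lower by a smaller amount, -0.74 ± 0.18 (adjusted p = 0.0118), a call that was lost without myb72_WCS417 replicate 3 (-0.59, adjusted p = 0.0588) and without oxMYB72_WCS417 replicate 1 (-0.65, adjusted p = 0.0618). The class III peroxidase AT5G06730 lay at 6.28, 6.55 and 6.15 against 8.80, 9.66 and 9.49, a log2 difference of -2.99 ± 0.18. Such peroxidases use hydrogen peroxide to couple phenolics in the wall. Prx37, another of this class, differed by -1.45 ± 0.15. The list of class III peroxidases by symbol held neither of them, and its 2 measured members, PRX52 (0.02) and PRXR1 (-0.11), were not called.

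Other named genes were lower too. CP1, a cysteine proteinase, lay at 6.10, 6.29 and 6.05 in oxMYB72 and at 8.90, 9.18 and 9.10 in myb72-2, and differed by -2.92 ± 0.13 (adjusted p = 1.76e-12). CHI, a chitinase of the kind that cuts fungal walls, lay at 8.50, 8.61 and 7.94 against 9.57, 10.09 and 9.92 (-1.51 ± 0.17). In untreated roots CHI was higher in oxMYB72, by 1.00 ± 0.17 (adjusted p = 0.000542). CCOAMT, a caffeoyl-CoA methyltransferase-like enzyme, differed by -1.90 ± 0.29, AT2G39400, an alpha/beta hydrolase, by -2.77 ± 0.22, and AR781 by -1.67 ± 0.17. AT5G22555 (-3.61 ± 0.19) and AT5G37840 (-2.81 ± 0.19) have no role given here. The probe sets 253505_at and 249333_at, with no gene in the annotation used, showed the deepest falls on the array, -6.44 ± 0.45 and -5.39 ± 0.27.

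Lower levels were not limited to genes that needed bacteria. AT4G12500, a lipid-transfer-like protein of the family of azelaic acid-induced genes, lay at 3.69, 3.74 and 4.14 in colonized oxMYB72 and at 7.43, 6.92 and 6.96 in colonized myb72-2. It differed by -3.25 ± 0.20 with bacteria and by -2.81 ± 0.20 without (adjusted p = 3.13e-10 and 1.98e-09). The difference between the 2 conditions was -0.43 ± 0.28 and was not called (adjusted p = 0.573).

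As a class, the 47 probe sets lower by at least 4-fold were chosen on the colonized arrays of oxMYB72 and myb72-2, so their levels in those arrays are a description. Their median level was between 4.594 and 4.947 in colonized oxMYB72 and between 7.815 and 8.496 in colonized myb72-2. In arrays that did not choose them it was 7.921 to 8.111 in colonized Col-0, 4.288 to 4.411 in untreated Col-0 and 4.14 to 4.443 in untreated oxMYB72. Untreated myb72-2 lay at 4.338 and 4.439 in 2 arrays and at 5.548 in replicate 2. In untreated roots 35 of the 47 were not called, 9 were lower and 3 were higher in oxMYB72, beside 3.27% lower and 3.53% higher over all probe sets. In bulk roots, fewer cells of a type and less RNA per cell cannot be told apart.

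**Figure D3:**
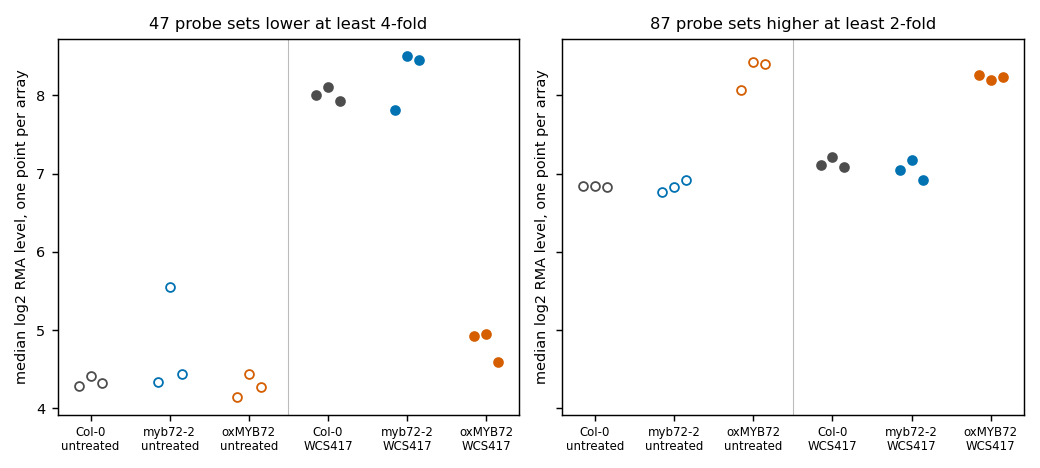
Median log2 RMA level per array over the 47 probe sets at least 4-fold lower (left) and the 87 at least 2-fold higher (right) in colonized oxMYB72 than in colonized myb72-2, with untreated roots as open and colonized roots as filled points. The lower class is near 8 in colonized Col-0 and myb72-2 and under 5 in colonized oxMYB72, and the higher class is above 8 in oxMYB72 in both conditions.

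Among the higher genes, BGLU42 was called with bacteria and not without. It lay at 9.56, 9.86 and 9.38 in colonized oxMYB72, at 8.13, 7.96 and 7.97 in colonized myb72-2 and at 9.72, 9.39 and 9.61 in colonized Col-0. The oxMYB72 and Col-0 arrays overlapped, and the mutant arrays lay below both. The log2 difference between oxMYB72 and myb72-2 was 1.58 ± 0.12 (adjusted p = 8.28e-09), a 3.00-fold higher level. The log2 difference from Col-0 was 0.03 for oxMYB72 (adjusted p = 0.964) and -1.56 for myb72-2. Without bacteria oxMYB72 and myb72-2 differed by -0.11 ± 0.12, and the 2 conditions differed by 1.69 ± 0.17 (adjusted p = 1.09e-06).

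CYP71B5, a cytochrome P450, and AT5G55620 followed BGLU42. CYP71B5 lay at 4.64, 5.44 and 5.08 in oxMYB72, at 3.61, 3.43 and 3.57 in myb72-2 and at 5.69, 5.22 and 5.68 in Col-0, all with bacteria. AT5G55620 lay at 5.49, 5.65 and 4.71, at 3.35, 3.31 and 3.12, and at 5.34, 4.82 and 5.01 in the same order. In both genes the mutant arrays stayed close to the untreated range, and the oxMYB72 arrays overlapped the Col-0 arrays. The log2 differences were 1.52 ± 0.16 for CYP71B5 and 2.03 ± 0.17 for AT5G55620 with bacteria, and -0.10 ± 0.16 and 0.41 ± 0.17 without. The conditions differed by 1.61 in each (adjusted p = 7.95e-05 and 0.000225).

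Other genes were higher in colonized oxMYB72 than in both colonized Col-0 and myb72-2. EXPB2, a beta-expansin that loosens cell walls, lay at 7.57, 7.45 and 7.02 in oxMYB72, at 6.14, 5.43 and 5.31 in myb72-2 and at 5.87, 5.90 and 5.67 in Col-0. It differed from myb72-2 by 1.72 ± 0.21 with bacteria and by -0.36 ± 0.21 without, and the conditions differed by 2.08 ± 0.30 (adjusted p = 0.000148). BGLU47, another beta-glucosidase, differed by 1.53 ± 0.16 with bacteria and 0.47 ± 0.16 without (conditions 1.06 ± 0.23, adjusted p = 0.00963). AT4G33710, a CAP family protein related to PR-1, lay at 6.07, 6.04 and 4.06 in oxMYB72, at 3.09, 3.26 and 3.37 in myb72-2 and at 3.30, 2.93 and 3.53 in Col-0. The third oxMYB72 array was far below the other two, and still above every myb72-2 array. Its log2 difference was 2.15 ± 0.32 (adjusted p = 0.000109), and 2.82 without that array. Without bacteria it was 0.25 ± 0.32. The conditions differed by 1.90 ± 0.45 (adjusted p = 0.0216), a call lost with the variance trend and robust moderation (0.0923), with the compared arrays alone (0.0641) and without any 1 of replicates 1 (0.0564) and 2 (0.0768) of oxMYB72_WCS417, replicates 1 (0.0529) and 2 (0.0553) of myb72_Ctrl and replicate 2 of oxMYB72_Ctrl (0.0647).

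**Figure D4:**
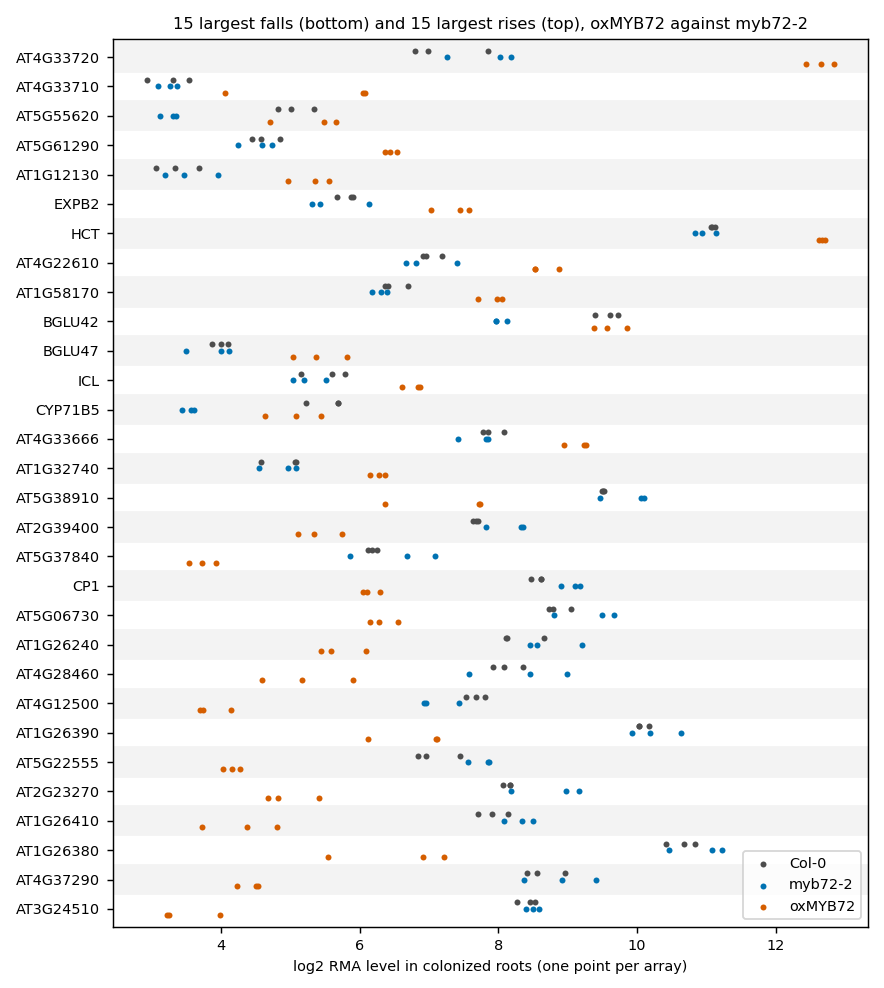
Log2 RMA level in the colonized arrays of Col-0, myb72-2 and oxMYB72, one point per array, for the 15 largest rises and 15 largest falls between oxMYB72 and myb72-2 among single named genes. Groups of oxMYB72 and myb72-2 that did not overlap were a condition for being shown. In most falls the oxMYB72 points are far left of both other genotypes, and BGLU42, CYP71B5 and AT5G55620 are the rises where they overlap Col-0.

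AT4G33720, the neighbouring PR-1-like CAP gene, was the largest rise of a named gene and was raised in both conditions. It lay at 12.84, 12.65 and 12.43 in colonized oxMYB72 and at 8.18, 7.26 and 8.02 in colonized myb72-2. The log2 difference was 4.82 ± 0.36 (adjusted p = 8.28e-09), a 28.3-fold higher level. In untreated roots it was 7.69 ± 0.36, from 6.74, 4.60 and 5.01 in myb72-2 to 13.08, 13.14 and 13.21 in oxMYB72. The smaller difference with bacteria, by -2.87 ± 0.52 (adjusted p = 0.00197), goes with a higher level in colonized myb72-2 and a slightly lower one in oxMYB72. The third measured CAP gene beside them, AT4G33730, differed by 0.00 ± 0.19. The largest rise of all, 7.79 ± 0.18, was in 262091_at, a probe set without a gene in the annotation used. Its mean level was 3.531 in untreated and 6.885 in colonized Col-0. In the same order it was 3.643 and 3.742 in myb72-2, and 12.438 and 11.535 in oxMYB72. With bacteria myb72-2 differed from Col-0 by -3.14 ± 0.18 (adjusted p = 2.21e-09). Which gene this probe set measures was not tested.

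HCT, a hydroxycinnamoyl transferase on the path to lignin and coumarins, lay at 12.66, 12.63 and 12.71 in oxMYB72 and at 10.83, 11.14 and 10.94 in myb72-2 with bacteria. The difference was 1.70 ± 0.11 with bacteria (adjusted p = 1.03e-09) and 2.34 ± 0.11 without. The flavin monooxygenase-like genes AT5G61290 and AT1G12130 were raised by 1.92 ± 0.15 and 1.76 ± 0.18 with bacteria and by 2.26 ± 0.15 and 2.85 ± 0.18 without. AT1G58170, a dirigent-like protein of the family that guides lignan coupling, was raised by 1.62 ± 0.13 and 1.81 ± 0.13. These 4 genes were at similar levels in Col-0 and myb72-2, with colonized log2 differences between them of -0.20 to 0.18 that were not called. ICL, isocitrate lyase of the glyoxylate cycle, was raised by 1.53 ± 0.15 and 0.81 ± 0.15, AT4G22610, lipid-transfer-like, by 1.68 ± 0.15 and 0.95 ± 0.15, AT4G33666 by 1.45 ± 0.17 and 2.24 ± 0.17, and AT1G32740 by 1.40 ± 0.16 and 1.83 ± 0.16.

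The 87 probe sets higher by at least 2-fold had a median log2 difference of 1.222 in untreated roots, where 63 of them were also called higher, 24 were not called and 0 were lower. The group means of the untreated and the colonized comparison share no array, but both comparisons take their spread from all 18 arrays, so their calls are not fully independent. Over all probe sets 319 were higher in both, 49% of those higher in colonized and 39.7% of those higher in untreated roots. For falls it was 132, 21.8% and 17.7%. Opposite directions were called in 45 probe sets lower with and higher without bacteria, 7.44% of those lower in colonized roots. Higher with and lower without were 9, 1.38% of those higher in colonized roots. In untreated roots 804 (3.53%) were higher and 744 (3.27%) lower, 6.81% in all, so 51.9% of the calls were higher. Median centring of the arrays moved that share to 67.4%, with 481 lower. The lower count was also 412 to 514 without any 1 of the 6 arrays.

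Measured genes of the coumarin synthesis and export list rose in part. The exporter ABCG37 had no probe set of a single named gene, nor had CYP82C4, PAL1, PAL2 and C4H of that list. Of 6 measured members 3 were higher and 0 lower, beside 2.86% and 2.66% of all probe sets, with a median log2 difference of 0.31 against 0.012 over all. HCT and BGLU42 are described above, and AT1G28680, the coumarin synthase COSY, lay at 10.29 in all 3 oxMYB72 arrays and at 9.72, 9.92 and 9.76 in myb72-2 (0.49 ± 0.11, adjusted p = 0.00835). That call was lost with the spread of the 6 arrays alone (adjusted p = 0.0599). AT3G13610, the feruloyl-CoA hydroxylase that opens the pathway to scopoletin, lay at 12.94, 12.82 and 12.63 against 12.67, 12.92 and 12.77, with groups that overlapped (0.01 ± 0.12). AT3G12900, the scopoletin 8-hydroxylase, also overlapped (0.13 ± 0.21). In untreated roots 4 of the 6 were higher, beside 3.53% of all probe sets, and these 2 were among them, by 1.45 ± 0.12 and 1.54 ± 0.21. The difference between conditions was -1.44 ± 0.17 for AT3G13610 (adjusted p = 1.21e-05) and -1.41 ± 0.29 for AT3G12900 (adjusted p = 0.00749). AT5G42830, an acyltransferase of the HXXXD type, behaved alike, at -0.06 ± 0.15 with bacteria and 3.59 ± 0.15 without. PYK10, an abundant root beta-glucosidase, differed by 0.13 ± 0.10 with bacteria.

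The iron deficiency list holds regulators and peptides. Of its 10 measured probe sets for 9 genes 4 were higher and 0 lower, beside 2.86% and 2.66% of all probe sets. Their median was 0.323 against 0.012 over all. FIT, BHLH38 and BHLH39 of that list had no probe set of a single named gene. Neither had IRT1 and FRO2 of the separate iron uptake list. The only measured member of that list was the cytochrome P450 CYP71B5, so none of its iron transporters was measured. BHLH101, a transcription factor of the iron deficiency response, lay at 6.34, 6.85 and 6.48 in oxMYB72, at 4.80, 5.21 and 5.49 in myb72-2 and at 5.96, 5.62 and 6.13 in Col-0. It differed from myb72-2 by 1.39 ± 0.17 (adjusted p = 8.52e-06) and from Col-0 by 0.65 (adjusted p = 0.0285), and by -0.23 ± 0.17 from myb72-2 without bacteria. AT1G47400, a small iron-responsive peptide, lay at 7.05, 6.99 and 6.95 against 6.00, 5.87 and 5.15. It was raised by 1.33 ± 0.25 with bacteria and 1.44 ± 0.25 without. AT1G18910 and AT1G74770 encode BTSL ubiquitin ligases, which restrain iron uptake in roots. They were raised over myb72-2 by 0.71 ± 0.11 and 0.66 ± 0.16 with bacteria, and the second probe set of AT1G74770, at 0.37, was not called. Against colonized Col-0, oxMYB72 was not called in AT1G47400 (0.74), AT1G18910 (0.17) or AT1G74770 (-0.02), with limma adjusted p of 0.11, 0.579 and 0.985. In the same order colonized myb72-2 differed from Col-0 by -0.59, -0.54 and -0.68, also not called. The call of AT1G74770 was lost without any 1 of myb72_WCS417 replicate 1 and oxMYB72_WCS417 replicates 1 and 2 (adjusted p of 0.0823, 0.055 and 0.0503). Regulators of the same list that were not called were PYE (0.14), ILR3 (0.19), bHLH104 (0.28), bHLH115 (0.04) and bHLH121 (0.12).

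**Figure D5:**
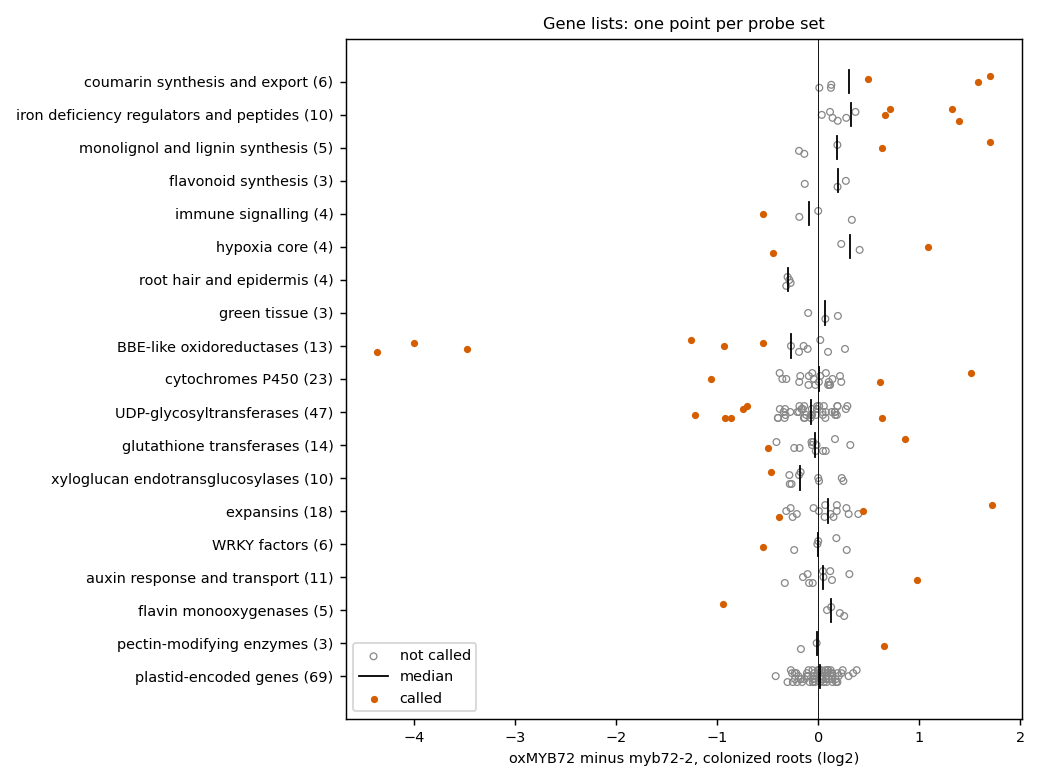
Log2 difference between oxMYB72 and myb72-2 in colonized roots for every measured probe set of the gene lists with 3 or more, the number measured in brackets, called probe sets in orange and the list median as a black bar. Coumarin and iron deficiency members lie at or above 0, and berberine bridge enzyme-like (BBE-like) members reach far below it.

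Other lists held few calls, and their counts stand beside 2.86% higher and 2.66% lower over all probe sets, with a median of 0.012. Among 47 UDP-glycosyltransferases, which attach sugars to small molecules, 1 was higher and 5 lower (median -0.072). UGT72E2, which glucosylates lignin precursors, was raised by 0.63 ± 0.10. UGT84B1, which glucosylates auxin, differed by -1.22 ± 0.14, UGT73D1 by -0.92 ± 0.14, UGT71C3 by -0.87 ± 0.11, UGT73B4 by -0.74 ± 0.14 and UGT72B3 by -0.71. In lignin synthesis, 2 of 5 members were higher, HCT and UGT72E2. UGT72E1, also a monolignol glucosyltransferase, differed by -0.19 ± 0.10 with bacteria and by -1.39 ± 0.10 without (conditions 1.2 ± 0.14, adjusted p = 1.18e-05).

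Of 23 cytochromes P450, 2 were higher, CYP71B5 and CYP51G2 (0.61 ± 0.12), and 1 was lower, CYP71B6 (-1.06 ± 0.15), with a list median of 0.007. Over all probe sets 2.86% were higher and 2.66% lower, and nothing particular is read from the few calls in these lists. CYP71B6 is an indole-metabolizing enzyme and was higher without bacteria, by 0.56 ± 0.15. Among 14 glutathione transferases GSTU20 was higher (0.86 ± 0.16) and GSTU22 lower (-0.50 ± 0.13). Expansins had 2 of 18 higher, EXPB2 and EXLA1 (0.44 ± 0.13), and EXPB1 lower (-0.38 ± 0.11). The calls of EXLA1 and EXPB1 were lost with the spread of the 6 arrays alone (adjusted p = 0.206 and 0.213), and those of GSTU22 (0.122) and CYP51G2 (0.0532) too. The call of EXLA1 was also lost with a second quantile normalization (0.0578), with median centring (0.0563) and without any 1 of the 3 myb72_WCS417 arrays and oxMYB72_WCS417 replicates 2 and 3 (adjusted p up to 0.229). That of EXPB1 was lost without any 1 of the 3 myb72_WCS417 arrays and oxMYB72_WCS417 replicates 1 and 3 (up to 0.183). That of GSTU22 was lost without myb72_WCS417 replicate 3 (0.0672) or oxMYB72_WCS417 replicate 1 (0.117). Of 11 auxin genes GH3.17, which conjugates auxin to an amino acid, was higher by 0.98 ± 0.10. Of 5 flavin monooxygenases with a symbol, FMO was lower by 0.94 on the log2 scale.

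The immune signalling list had 1 of 4 members lower, beside 2.66% of all probe sets. It was WRKY53, a transcription factor of defence and senescence, at 6.14, 6.24 and 6.26 against 6.67, 6.97 and 6.66 (-0.55 ± 0.14, adjusted p = 0.0173). BIK1, a kinase that relays signals from pattern receptors, was not called with bacteria (0.33 ± 0.11) and was higher without, by 0.95 ± 0.11. Hypoxia genes had 1 of 4 higher, beside 2.86% of all probe sets, AT5G10040 (1.08 ± 0.24, groups overlapping), and 1 lower, PDC2, a pyruvate decarboxylase (-0.45 ± 0.10). With the spread of the 6 arrays alone these calls of WRKY53, AT5G10040 and PDC2 were lost (adjusted p = 0.0511, 0.0949 and 0.0779). Those of WRKY53 and AT5G10040 were also lost without myb72_WCS417 replicate 2 (0.104 and 0.0521) or oxMYB72_WCS417 replicate 1 (0.0631 and 0.0517). SWEET2, a vacuolar sugar transporter of roots, was raised by 0.89 ± 0.14 with bacteria and 0.87 ± 0.14 without. QQS, an orphan gene, differed by -0.62 ± 0.13 from myb72-2 and by -1.58 from Col-0, and the first call was lost with the compared arrays alone (0.0533). Colonized myb72-2 itself differed from Col-0 in this gene by -0.96 (limma adjusted p = 0.00148). None of 69 plastid-encoded genes was called by limma, with a median of 0.018 and 4 at an unadjusted p under 0.05.

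Neighbouring genes were lower together in a few places. On chromosome 1 AT1G72900, AT1G72920 and AT1G72940, which encode TIR-domain proteins of the immune receptor type, differed by -2.23 ± 0.16, -0.70 ± 0.12 and -0.98 ± 0.12. On chromosome 5 AT5G49760, AT5G49770 and AT5G49780, receptor-like kinases, differed by -0.52, -0.98 and -0.86. On chromosome 3 AT3G50140, AT3G50150 and AT3G50160 differed by -0.58, -0.53 and -0.57. These were the 3 runs of 3 or more consecutive genes called the same way, counting only probe sets of exactly 1 named gene. Genes between them without such a probe set were passed over. Related neighbours can share probe signal on the array.

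The effect of the transgene differed between colonized and untreated roots in 633 probe sets (2.78%), with 211 (0.928%) more positive and 422 (1.86%) more negative with bacteria. More positive were thus 33.3%, and 20.3% after median centring. Without 1 array the more positive count was 113 to 236. It was more than 1.5 times lower without myb72_Ctrl replicate 1 (134) or 3 (127), oxMYB72_Ctrl replicate 2 (113) or oxMYB72_WCS417 replicate 2 (126). The most negative named genes were AT3G24510 (-4.82 ± 0.25), AT4G37290 (-4.49 ± 0.28), AT1G26410 (-4.25 ± 0.37), AT1G26420, AT5G38910 (-4.15 ± 0.44) and AT1G26380 (-3.88 ± 0.78). Without untreated myb72-2 replicate 2 these were -5.03 for AT3G24510, -4.62 for AT4G37290, -4.61 for AT1G26410 and -4.55 for AT5G38910. For AT1G26380, which lay at 6.96 in that array against 3.66 and 3.86, it was -4.94, and with robust moderation that gene's call was lost (adjusted p = 0.0617). AT5G14650, a polygalacturonase-like pectin enzyme, was among the most positive, at 2.23 ± 0.43. It was not called with bacteria (0.65 ± 0.31) and was lower without (-1.58 ± 0.31). ATPMEPCRB, a pectin methylesterase, was raised with bacteria by 0.65 ± 0.17 (adjusted p = 0.0269), a call lost with the spread of the 6 arrays alone (0.071) and without any 1 of myb72_WCS417 replicates 1 (0.0525) and 2 (0.157) and oxMYB72_WCS417 replicates 2 (0.127) and 3 (0.0825).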

How the data were processed

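RNA of Arabidopsis roots was measured on Affymetrix ATH1 arrays. Per the submitters' processing notes, the authors made the deposited log2 values with RMA; no version is given in the sources used here. RMA corrects background, equalizes array distributions and compresses differences near background. Groups came from sample titles. Of 22810 probe sets 64 controls were left out. GEO's platform annotation gave exactly 1 gene for 13513 of the 22746 tested, several for 503 and none for 8730, and 13436 matched a RefSeq TAIR10.1 locus. One model with 6 group means over 18 arrays was fitted with limma 3.58.1 (R 4.3.3), tested on simulated data, with Benjamini-Hochberg adjustment over all tested probe sets. Named genes were the 15 largest rises and falls, the 6 largest differences between conditions each way, up to 4 called members per list, and BGLU42, CYP71B5 and AT5G55620. The 15 rises and falls were taken only from called probe sets whose 3 arrays of one group all lay beyond the 3 of the other. Called genes of at least 2-fold with a symbol, neighbours and members of described groups, the largest changes without a gene and the plastid-encoded list were added after their values were seen. Members and lists were chosen with earlier results of these data known. Of 329 list entries 62 had a probe set. The number of arrays limits the precision. Replicate numbers were not used as pairs in the main model: deviations of same-numbered colonized arrays correlated at 0.119, -0.196 and 0.178. Those of differently numbered colonized arrays correlated at -0.408 to 0.332. Whether arrays shared a batch under other numbers was not tested. Alternatives were each array left out in turn, the replicate number as a block, the compared arrays fitted alone, a second quantile normalization or median centring, robust moderation with a variance trend, and no probe sets among the 30% dimmest. Figures used matplotlib 3.10.9 and Python 3.11.15.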

Additional observations from a re-analysis of the deposited data

Results flagged for a closer look

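The effect of the transgene, oxMYB72 against myb72-2, was tested for a difference between colonized and untreated roots, and the 49 named genes and probe sets below differed at an adjusted p under 0.05 in limma. Values are the log2 difference with bacteria minus that without, over 3 arrays a group.

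More positive with bacteria were AT5G14650 (2.23), EXPB2 (2.08), AT4G33710 (1.9), BGLU42 (1.69), BHLH101 (1.62), AT5G55620 (1.61), CYP71B5 (1.61), UGT72E1 (1.2), GSTU20 (1.1), BGLU47 (1.06), GH3.17 (0.62) and AT1G18910 (0.6).

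More negative with bacteria were 253505_at (-5.34), 249333_at (-5.09), AT3G24510 (-4.82), AT4G37290 (-4.49), AT1G26410 (-4.25), AT1G26420 (-4.21), AT5G38910 (-4.15), AT1G26380 (-3.88), AT5G42830 (-3.65), AT1G26390 (-3.64), AT5G22555 (-3.55) and AT2G23270 (-3.46). Values between these and the smallest were those of AT1G26240 (-2.9), AT4G33720 (-2.87), AT5G37840 (-2.86), AT4G28460 (-2.83), AT5G06730 (-2.63), CHI (-2.51), AT2G39400 (-2.4), CP1 (-2.4), AR781 (-1.99), CCOAMT (-1.96) and CYP71B6 (-1.62). The smallest negative values were those of AT3G13610 (-1.44), ATGLR1.2 (-1.44), AT3G12900 (-1.41), UGT84B1 (-1.25), Prx37 (-1.16), AT1G12130 (-1.1), 262091_at (-1), UGT73D1 (-0.96), AT1G72940 (-0.9), UGT73B4 (-0.89), FMO (-0.72), HCT (-0.64), UGT71C3 (-0.63) and BIK1 (-0.61). For the CAP gene AT4G33720, the flavin monooxygenase-like AT1G12130, HCT and 262091_at the negative value is a smaller rise with bacteria, not a fall. For AT3G13610, AT3G12900, AT5G42830 and BIK1 it is a rise called without bacteria and not called with them. The calls of 262091_at, AT1G12130, AT1G18910, AT1G26380, AT4G33710, BIK1, FMO, GH3.17, HCT, UGT71C3 and UGT73B4 were lost in at least 1 alternative processing. Without untreated myb72-2 replicate 2, which stood apart, the value was -6.17 for 253505_at, -5.57 for 249333_at and -4.31 for AT1G26390. It was -3.68 for AT2G23270, -3.09 for AT4G28460 and -3.10 for AT1G26240. In AT4G33720 the untreated myb72-2 array that stood apart was replicate 1, at 6.74 against 4.60 and 5.01. Leaving out any 1 array gave -3.52 to -2.45 for that gene, with -2.45 without replicate 2.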

How the results depend on the processing

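With the spread estimated from only the arrays compared, the colonized comparison of oxMYB72 with myb72-2 gave 588 calls (266 higher, 322 lower), the difference between conditions 124 higher, oxMYB72 against Col-0 290 higher, and myb72-2 against Col-0 6 calls, 0 higher and 6 lower. Fewer arrays leave fewer degrees of freedom in that setting. Median centring gave 481 lower in untreated roots and 124 more positive differences. The variance trend with robust moderation gave 45 calls for myb72-2 against Col-0, 39 of them lower, and removing the dimmest probe sets left 1 higher there. For these settings the cause was not tested. The main counts of the last 2 comparisons were 969 (460 higher, 509 lower) and 29 (4 higher, 25 lower).

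Leaving out 1 array gave 1009 to 1665 calls in colonized roots (517 to 782 higher, 472 to 883 lower), with the most without myb72_WCS417 replicate 3. Untreated roots gave 1005 to 1219 (581 to 705 higher, 412 to 514 lower), the difference 443 to 672 (113 to 236 higher, 325 to 437 lower) and oxMYB72 against Col-0 733 to 859 (331 to 388 higher, 382 to 472 lower). For myb72-2 against Col-0 it was 11 to 121 (1 to 72 higher, 10 to 49 lower).

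With the replicate number as a block the colonized comparison gave 1267 calls (649 higher, 618 lower), untreated roots 1511, the difference 615, oxMYB72 against Col-0 988 and myb72-2 against Col-0 31. Of 67 named genes called in colonized roots 54 kept the call in every alternative, and of 49 called differences between conditions 38 did. No named value changed direction past the threshold. AT5G14650 was called without myb72_WCS417 replicate 1 (1.04) and BIK1 without replicate 2 (0.44). The number of arrays and signal near background limit what small or low changes can show.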
